A study of Homo sapiens with 12 samples.

Results

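Krüppel-like factors (KLFs) were followed through RNA-seq of U937 cells, a human monocytic line from a histiocytic lymphoma that the labels list as an AML cell line. The 10 members, KLF2, KLF3, KLF4, KLF5, KLF6, KLF9, KLF10, KLF11, KLF13 and KLF17, were taken by gene symbol, out of 44786 symbols. They were picked because KLF17 was the strongest ATRA-induced gene in these libraries, so the set was chosen by the values of ATRA against untreated cells, and these are given for every member as a description without a test. The members have 44 transcript rows, of which 25 held no read and 19 held at least 1. At least 1 coding transcript of 8 members passed the filter for testing, which asked for 10 normalized reads in 3 libraries. KLF4 and KLF11 did not pass it.

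The 4 groups had 3 libraries each: untreated cells, cells given 200 nM decitabine (DAC, a DNA hypomethylating agent), cells given 1 µM all-trans retinoic acid (ATRA, the ligand of the retinoic acid receptors), and cells given both. All cells grew in medium with 20% FCS and 5 ng/ml GM-CSF, a myeloid growth factor. The sample descriptions give 96 h for untreated and 72 h for treated cells, whereas the design text gives 72 h for all, so a part of culture time in the differences from untreated cells cannot be told apart from treatment. By the study's methods ATRA was added only together with the last of the daily DAC doses, so cells were exposed to ATRA for a shorter time than these. The triplicates are described as technical, so every p-value measures the spread between libraries of 1 cell line, which may be technical only. The libraries held 8042435 to 10683593 counted reads, and 3 reads correspond to 2.50 to 3.71 normalized reads. Libraries are named here by their group and their column number, 1 to 12.

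KLFs are transcription factors that bind CACCC and GC-rich boxes with zinc fingers at their C-terminal end, and their other ends recruit coactivators or corepressors. In blood cells KLF2 is known for keeping lymphocytes and monocytes quiescent, and KLF4 for monocyte differentiation. KLF3 represses through CTBP proteins, whereas KLF9, KLF10, KLF11 and KLF13 recruit the SIN3A corepressor. KLF5 is best known from epithelia and KLF17 from the early embryo and naive pluripotent cells.

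The bases before the start of the genes with the largest changes, KLF17 and KLF2, are shown because these genes were near 0 in untreated cells and differed in which drug they followed. Both sequences are from RefSeq (GRCh38.p14), on the + strand, and run from 250 bases before the start to the base before it, at chr1:44118571-44118820 for KLF17 and chr19:16324576-16324825 for KLF2. Capitals in KLF17 mark the 6 matches to CACCC (read as GGGTG on this strand) and the only match to a retinoic acid receptor half-site (the consensus AGGTCA or its variants, here TGACCC on this strand). Capitals in KLF2 mark the only match to the MEF2 consensus.
KLF17: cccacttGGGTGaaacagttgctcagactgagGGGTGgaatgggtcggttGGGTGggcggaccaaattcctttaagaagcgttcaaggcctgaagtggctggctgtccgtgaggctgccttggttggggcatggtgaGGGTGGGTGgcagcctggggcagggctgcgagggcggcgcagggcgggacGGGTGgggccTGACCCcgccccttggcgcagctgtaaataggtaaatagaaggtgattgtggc
KLF2: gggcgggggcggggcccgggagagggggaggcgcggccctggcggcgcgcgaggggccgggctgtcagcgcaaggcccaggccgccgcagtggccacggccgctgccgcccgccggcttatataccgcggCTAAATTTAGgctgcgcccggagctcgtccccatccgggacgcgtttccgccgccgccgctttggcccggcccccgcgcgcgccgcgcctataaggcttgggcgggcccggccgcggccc
The half-site was searched as AGGTCA, as its variant AGTTCA, as the variant GGGTCA and as the variant GGTTCA. All motifs were counted on both strands in the RefSeq promoters of 300 bases, which add 50 bases after the start. RefSeq held such promoters for KLF2, KLF4, KLF5, KLF6, KLF9, KLF11, KLF13 and KLF17, but not for KLF3 and KLF10 in the table used. At least 6 CACCC matches were found in 0.578% of all 35116 promoters, and at least 1 in 59.9%. A half-site match was found in 38.6% of them and a match to the MEF2-like pattern in 2.73%. CACCC had no match in the KLF2 promoter, whereas GGGCGG, the GC box, had 6 matches there and 4 in that of KLF17 (in all promoters, 2.86% held at least 6 and 9.06% at least 4). The promoters also differed in CpG dinucleotides, the sites of DNA methylation, with 49 in KLF2 and 18 in KLF17 against a median of 14 over all promoters. Direct repeats of the half-site with 1, 2 or 5 bases between them, the usual binding sites of retinoic acid receptors, were looked for within 5000 bases of each start in the genome of the same build. KLF17 held a single one, AGGTCAggAGTTCA at chr1:44122818-44122831, 4003 bases after its start and on the - strand. KLF6 held the same letters at chr10:3788882-3788895, 3695 bases before its start. KLF10 held 1 as well. KLF2, KLF3, KLF4, KLF5, KLF9, KLF11 and KLF13 held none. Repeats with 2 bases between the half-sites were present around 40.3% of 7470 tested genes, so such a match is a common feature.

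KLF17, a divergent member of the family, was nearly silent without ATRA and abundant with it. Untreated libraries 1 to 3 held 3.68, 2.73 and 1.85 normalized reads. DAC libraries 4 to 6 held 6.49, 1.95 and 7.97, ATRA libraries 7 to 9 held 498, 555 and 419, and DAC+ATRA libraries 10 to 12 held 272, 313 and 331. All 6 libraries with ATRA were above all 6 without it, and the DAC+ATRA libraries were all below the ATRA libraries. The mean was 491 ± 68.6 with ATRA (SD, n = 3) and 2.75 ± 0.91 in untreated cells, a log2 fold change of 7.05, which ranked 1 of 7622 symbols, with RASD2 next at 6.78. Since this contrast chose the gene, no test is given.

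The DAC+ATRA libraries, which the choice did not use, held 305 ± 30.2 normalized reads of KLF17 against 5.47 ± 3.14 with DAC. The log2 fold change was 5.71 ± 0.31 (SE, adjusted p = 1.04e-10, limma), which ranked 5 of 7622 symbols in this comparison. Comparisons with the untreated libraries, which the choice did use, are a description: the log2 fold change was 6.38 with DAC+ATRA and 0.66 with DAC, where library 5 overlapped the untreated libraries. DAC+ATRA was 0.68 lower than ATRA on the log2 scale, without a test because the ATRA libraries chose the gene. The coding transcript ENST00000372299, at chr1:44118821-44135140 on the + strand with 4 exons, held all KLF17 reads.

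The 5 genes most like KLF17 over the 12 libraries, by Pearson correlation of log2(normalized reads + 1) among 7621 other symbols, were DHRS3 (r = 0.986), FMNL2 (0.986), DNMT3A (0.985), C10orf54 (0.981) and RASD2 (0.980). The points share 4 group means, so these values describe a common pattern and carry no p. DHRS3, which reduces retinal and is a known retinoic acid target, had means of 385, 429, 4664 and 5417 in untreated, DAC, ATRA and DAC+ATRA cells. DNMT3A, a DNA methyltransferase, went from 1025 in untreated cells to 1279, 2664 and 2761 in the same order.

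KLF17 has another family gene as its neighbour. KLF18, at chr1:44137821-44141631 on the - strand, lies 2681 bases past the end of KLF17, and both genes are transcribed towards each other. It was named with the other family genes, whereas the window of 250 kb around KLF17 was chosen after these values were seen. No untreated library had a KLF18 read. DAC libraries held 11.9, 12.7 and 11.95 normalized reads, ATRA libraries 22.2, 14.6 and 11.7, and DAC+ATRA libraries 146, 171 and 166. Every DAC+ATRA library was thus above all the others, an order that KLF17 did not show. Against the limit of 3 reads over the untreated group, KLF18 was at least 13.3-fold higher with DAC, at least 17.1-fold higher with ATRA and at least 174-fold higher with both. DAC+ATRA was above DAC by 3.61 ± 0.29 on the log2 scale (adjusted p = 1.41e-08) and above ATRA by 3.28 ± 0.29 (8.93e-09). The interaction, the log2 amount by which DAC+ATRA departs from the sum of both single log2 changes, was -0.44 ± 0.42 (0.652). With no read in untreated cells this value depends on the pseudocount, and it ran from -3.33 with edgeR (0.112) to -0.20 over the settings. On the linear scale the mean with both drugs was 161, whereas both single rises sum to 28.3 normalized reads, a description without a test. The libraries were strand-specific, but whether counting used the strand is not given in the sources used here, so reads past the end of KLF17 were not told apart from KLF18 reads. A direct repeat of the half-site, AGGTCAggGGTTCA at chr1:44141696-44141709, lies 71 bases before the start of KLF18.

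On the other side, 87359 bases away, SLC6A9, a glycine transporter gene, was also higher with ATRA. Its means were 16.2 ± 1.29 in untreated cells, 23.9 ± 7.39 with DAC, 79.8 ± 17.5 with ATRA and 60.7 ± 6.65 with both (SD, n = 3). The log2 fold change was 2.21 ± 0.23 for ATRA against untreated (adjusted p = 5.1e-07) and 1.34 ± 0.23 for DAC+ATRA against DAC (0.000269). IPO13, B4GALT2 and ARTN, the other tested genes of the window, missed the threshold for ATRA against untreated, with log2 fold changes of 0.31, -0.16 and -0.54 (adjusted p = 0.0878, 0.813 and 0.323).

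**Figure D1:**
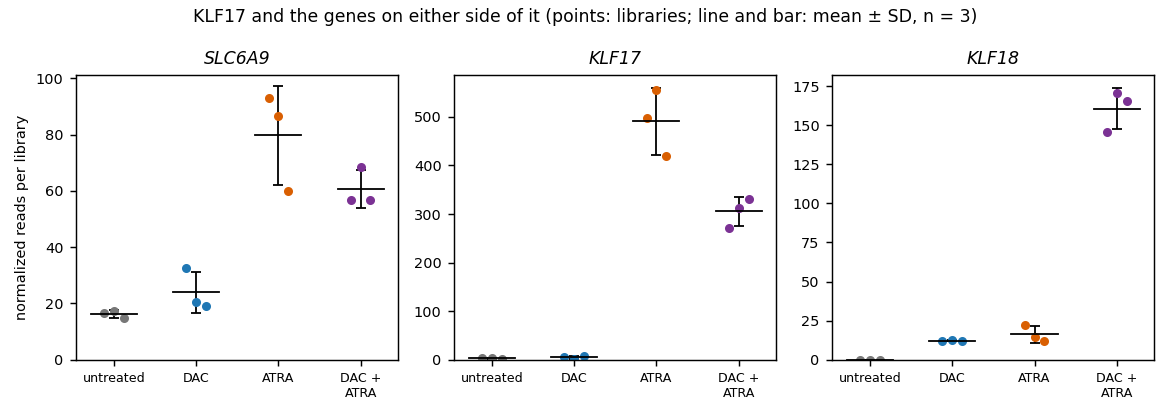
Normalized reads (y axis, from 0) of SLC6A9, KLF17 and KLF18 in untreated, DAC, ATRA and DAC+ATRA cells, with 1 point per library and the mean ± SD of 3 libraries in black. KLF17 is highest with ATRA (mean 491), KLF18 with DAC+ATRA (161), and SLC6A9 with ATRA (79.8).

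KLF2, which restrains activation and migration of lymphocytes and monocytes, rose with DAC and rose further when ATRA was added. Untreated libraries held 4.60, 4.55 and 3.69 normalized reads and DAC libraries 81.1, 122 and 215. ATRA libraries held 10.6, 18.2 and 6.66, and DAC+ATRA libraries 746, 896 and 692. The 4 groups did not overlap, and their order was untreated, ATRA, DAC, DAC+ATRA. KLF2 was 4.62 ± 0.32 higher on the log2 scale with DAC (SE, adjusted p = 6.38e-10, limma) and 7.20 ± 0.32 higher with DAC+ATRA (7.88e-13). DAC+ATRA was above DAC by 2.58 ± 0.32 (8.63e-06) and above ATRA by 6.02 ± 0.32 (1.89e-11). These calls stood in all 25 settings tried.

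The mean of KLF2 with both drugs was 778 ± 106, whereas the untreated level plus the rises with each drug alone comes to 147 normalized reads. On the log2 scale the interaction was 1.40, with a 95% confidence interval of 0.45 to 2.34 and an adjusted p of 0.0898, short of the threshold of 0.01. Over the alternatives its adjusted p ran from 0.0146 to 0.626, and both edgeR (0.567) and DESeq2 (0.403) on the recovered reads gave higher values. Thus KLF2 exceeded the sum of the single effects on the linear scale, a description without a test, and did not pass the test on the log2 scale.

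KLF5, an epithelial and progenitor factor, was seen mainly with DAC. Its 2, 56, 2 and 13 reads in untreated, DAC, ATRA and DAC+ATRA cells correspond to 0.92, 0.91 and 0 normalized reads in libraries 1 to 3, to 14.1, 22.4 and 19.9 in 4 to 6, to 1.06, 0.91 and 0 in 7 to 9, and to 6.33, 5.26 and 1.24 in 10 to 12. All DAC libraries were above all others. The transcript passed the filter through the DAC libraries only, so it had to differ between DAC and other cells, and those differences are given without a test. The log2 fold change was 3.66 for DAC against untreated cells and -2.06 for DAC+ATRA against DAC. DAC+ATRA against untreated cells gave 1.60 ± 0.48 (SE, adjusted p = 0.00752) and passed in 12 of 25 settings, with adjusted p from 0.000819 to 0.0502.

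KLF10, a TGF-beta-inducible gene, held 0.92 to 44.8 normalized reads per library. Untreated libraries held 7.35, 9.10 and 0.92 normalized reads, DAC libraries 19.5, 18.5 and 44.8, ATRA libraries 1.06, 12.7 and 5.83, and DAC+ATRA libraries 29.8, 28.4 and 27.2. The 6 libraries with DAC were above the 6 without it. DAC against untreated gave a log2 fold change of 2.27 ± 0.66 (adjusted p = 0.00934), DAC+ATRA against untreated 2.43 ± 0.66 (0.00514) and DAC+ATRA against ATRA 2.35 ± 0.66 (0.00843). These calls were close to the threshold and stood in 14, 21 and 13 of 25 settings (adjusted p from 0.00104 to 0.0658, 0.000562 to 0.0435 and 0.00103 to 0.0633). Single untreated libraries moved the size as well. Without library 3 the log2 fold change was 1.52 with DAC and 1.68 with DAC+ATRA, and without library 2 it was 2.72 and 2.88.

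KLF3, a repressor that binds CTBP, was highest with both drugs. Untreated libraries held 1280, 1344 and 1302 normalized reads, DAC libraries 2070, 2285 and 1932, ATRA libraries 2294, 1970 and 1815, and DAC+ATRA libraries 3570, 3915 and 4196. All treated libraries were above the untreated ones, and all DAC+ATRA libraries above those with a single drug. DAC raised KLF3 by 0.68 ± 0.10 on the log2 scale (adjusted p = 1.3e-05) and DAC+ATRA by 1.57 ± 0.10 (4.74e-11). DAC+ATRA was above DAC by 0.89 ± 0.10 (1.82e-06) and above ATRA by 0.95 ± 0.10 (1.56e-07). The interaction was 0.27, with an interval of -0.03 to 0.57 (adjusted p = 0.359). A shorter coding transcript, ENST00000514033, was far lower, with 23.0 to 40.6 normalized reads in untreated and 35.8 to 49.7 in DAC+ATRA cells, and its adjusted p ran from 0.064 to 0.819 over the 5 tests.

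KLF13 and KLF9, both SIN3A-binding repressors, differed. KLF13 held 958, 995 and 958 normalized reads in untreated cells, 1552, 1817 and 1432 with DAC, 1206, 1051 and 1013 with ATRA and 1477, 1840 and 1676 with both. All 6 libraries with DAC were above all 6 without. The log2 fold change was 0.71 ± 0.11 with DAC (adjusted p = 1.56e-05) and 0.77 ± 0.11 with both drugs (4.57e-06). Between DAC+ATRA and DAC the difference was 0.06, with a 95% interval of -0.17 to 0.29 (0.793), and DAC+ATRA was above ATRA by 0.61 ± 0.11 (0.000113). KLF9, a gene that glucocorticoid and thyroid hormones induce, stayed between 1241 and 1621 in all 12 libraries. Its group means were 1453, 1358, 1300 and 1557, and no comparison passed the threshold. DAC against untreated gave -0.10 (interval -0.30 to 0.11, adjusted p = 0.431). This call depends on scaling: KLF9 fell by 0.31 with edgeR (0.0039), by 0.30 with TMM scaling (0.00555) and by 0.28 with DESeq2 (0.00815), out of an adjusted p range of 0.0039 to 0.747.

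KLF6, a widely expressed factor of wound and inflammatory responses, rose with DAC. It held 88.2, 60.1 and 63.7 normalized reads in untreated cells, 118, 136 and 125 with DAC, 63.4, 49.2 and 47.4 with ATRA and 92.2, 82.1 and 69.2 with both. The DAC libraries were above all others. DAC against untreated gave 0.85 ± 0.18 (adjusted p = 0.000615), whereas DAC+ATRA against untreated gave 0.21 (interval -0.18 to 0.59, 0.344). DAC+ATRA against DAC was -0.64 (interval -1.02 to -0.26, 0.0175) and passed in 2 of 26 settings.

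KLF4 and KLF11 had too few counted reads for a test. The 3 KLF4 rows with reads held 40 reads in all 12 libraries, 30 of them on a transcript with a retained intron (ENST00000497048), and both KLF11 rows together held 16. Changes of a few reads in either gene were therefore not detectable. The coding row with the highest mean shared all but 0 of its 1956 bases with other transcripts in KLF4, and all but 209 of 4035 in KLF11. Reads on shared bases may go uncounted, so these counts do not show that either gene was nearly absent.

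**Figure D2:**
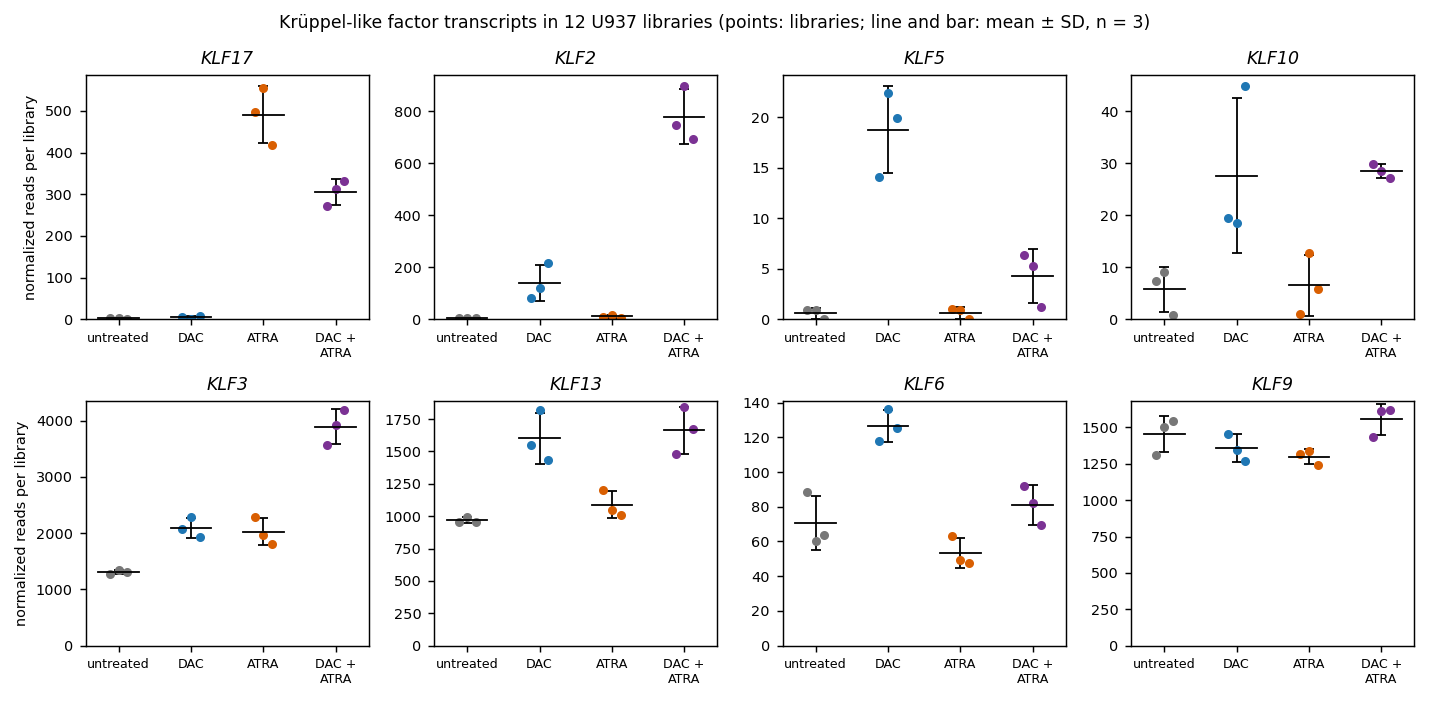
Normalized reads (y axis, from 0, a scale of its own for each panel) of the 8 tested KLFs in the 12 libraries, with 1 point per library and the mean ± SD of 3 libraries in black. KLF17 follows ATRA, KLF5 and KLF6 are highest with DAC, KLF10 and KLF13 are higher in the 6 libraries with DAC, and KLF2 and KLF3 are highest with DAC+ATRA (means 778 and 3894).

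Levels of different genes are compared here per kilobase only, on 2 scales, since the gene models and rules of the counting are not known. The scales are the whole transcript and its own bases. Own bases are those that no other transcript of the series matched to GENCODE 44 shares on the same strand. In untreated cells KLF9 and KLF3 led, with 279 ± 24.0 and 234 ± 5.75 normalized reads per kilobase of transcript and 279 ± 24.0 and 285 ± 6.995 per kilobase of own bases, where they overlapped. KLF13 (142 ± 3.14 per kilobase of transcript) and KLF6 (32.6 ± 7.06) followed, and KLF2, KLF17 and KLF5 stood under 2 on both scales. With ATRA, KLF17 (155 ± 21.7 per kilobase of transcript) overlapped KLF13 (159 ± 14.9) on both scales, after KLF3 and KLF9. With DAC+ATRA, KLF3 led on both scales (696 ± 56.0 per kilobase of transcript), followed by KLF9 (299 ± 20.3), KLF2 (276 ± 37.4) and KLF13 (243 ± 26.5), each of which overlapped the next. Per kilobase of own bases KLF2 (345 ± 46.8) came before KLF9 and overlapped it. KLF17 (96.6 ± 9.56) came after them without overlap, also on both scales. The place of KLF10 depends on the scale, with 9.77 ± 0.45 per kilobase of transcript and 176 ± 8.18 per kilobase of own bases with DAC+ATRA, below KLF17 on the first and above it on the second.

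KLF17 is left out of the following counts except in DAC+ATRA against DAC, since the choice used its untreated and ATRA values, and KLF5 is left out of the comparisons with DAC, which the filter decided. With DAC 5 of 6 members rose (KLF2, KLF3, KLF6, KLF10 and KLF13) and none fell, where 30.6% of all 9016 tested transcripts rose and 39.3% changed in either direction. With DAC+ATRA 5 of 7 rose against untreated cells (KLF2, KLF3, KLF5, KLF10 and KLF13), where 32.6% of all rose and 46.8% changed. KLF2, KLF5 and KLF10 stayed under 10 normalized reads in every untreated library and passed the filter through treated libraries, so these counts support no rise of the family. DAC+ATRA against DAC had 3 of 7 higher (KLF2, KLF3 and KLF17) and none lower, with 6.08% of all transcripts higher and 5.26% lower. DAC+ATRA against ATRA had 4 of 7 higher (KLF2, KLF3, KLF10 and KLF13), with 25.9% of all higher. All these comparisons with DAC+ATRA share libraries with another one. The median log2 fold change of the members was 0.78 with DAC and 1.57 with DAC+ATRA against untreated cells, beside 0.22 and 0.20 over all tested transcripts. That shift of all transcripts depends on the scaling and was 0.02 and 0.06 with TMM. No member passed the interaction test (0 of 6 with limma, edgeR or DESeq2, beside 2.46% of all transcripts with limma). At an unadjusted p under 0.05 there were 2 with limma (KLF2 and KLF9) and 2 with edgeR and with DESeq2 (KLF3 and KLF9). With ATRA against untreated, described only, KLF2, KLF3 and KLF13 were higher in all 3 libraries, besides KLF17, which this contrast chose. No member was lower in all 3. Of all transcripts 14.8% were higher without overlap and 9.14% passed the test. Apart from KLF17 the log2 fold changes ran from -0.39 for KLF6 to 1.18 for KLF2.

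**Figure D3:**
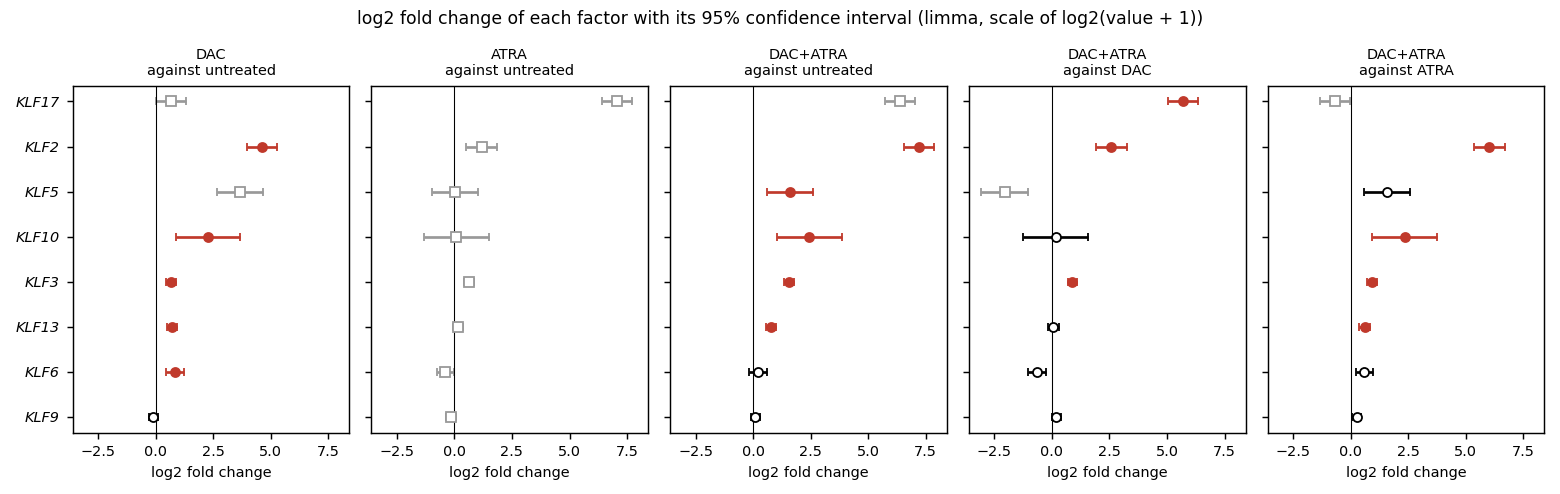
log2 fold change (x axis) of the 8 tested KLFs in 5 comparisons, with 95% confidence intervals from limma. Red filled circles passed the adjusted p threshold of 0.01, open black circles did not, and grey squares have no test because the choice of the set or the filter used those values. KLF17 lies at 7.05 with ATRA and 5.71 in DAC+ATRA against DAC, and no red point lies left of 0.

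Marker genes moved with these groups. Of 10 myelomonocytic markers 7 had over 3 reads in every library, while PTPRC, which encodes CD45, had no read in any. PTPRC has 28 transcript rows, and reads that fall on several transcripts may go uncounted. For any marker, few or no reads therefore do not show that the gene was silent. The 10 myelomonocytic markers summed to 55220 to 61575 normalized reads in untreated libraries and 26681 to 40560 with DAC. The sums were 33631 to 45327 with ATRA and 23866 to 25351 with DAC+ATRA. MPO made up most of each sum, with 49477 to 55620 in untreated and 14273 to 15535 in DAC+ATRA libraries. The fall of the sum was thus that of MPO, not of the markers as a set. ITGAM was higher in every treated library than in the untreated ones, whereas LYZ was higher with DAC and with DAC+ATRA and overlapped the untreated libraries with ATRA. The 19 markers of other cell types summed to 311 to 342 in untreated, 3319 to 3337 in DAC, 576 to 766 in ATRA and 4420 to 4821 in DAC+ATRA libraries, mainly PECAM1 and CD79A, whereas HBA1, HBB and ALAS2 had no read, and CD3E 1 read. The part of such shifts in the KLF results was not tested. In bulk RNA, fewer cells of a type and less RNA per cell cannot be told apart.

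Of the 17 other genes of the KLF and SP family, 9 passed the filter. With DAC 5 rose and none fell, and with DAC+ATRA 4 rose and 1 fell, where 30.6% and 32.6% of all tested transcripts rose. KLF18 and SP9 passed the filter through treated libraries only, so they had to differ. Over the settings up to 2 fell with DAC, KLF1 and SP1, both with edgeR, DESeq2 and TMM scaling. Besides KLF18, the largest rise was that of SP9, a developmental factor with no read in untreated or ATRA cells and a mean of 14.3 with DAC and 5.31 with both. KLF15, a glucocorticoid-responsive metabolic regulator, rose by 1.46 ± 0.18 with DAC (adjusted p = 8.71e-07) and was 0.74 ± 0.18 lower on the log2 scale in DAC+ATRA than in DAC cells (0.00548, passed in 10 of 15 settings). KLF1, the erythroid factor, fell by 0.78 ± 0.17 with DAC+ATRA against untreated cells (0.000494). SP2 rose by 0.93 ± 0.11 (2.94e-07), and KLF16 rose with DAC by 0.52 ± 0.14 (0.00326), a call lost in 6 of 15 settings, with 0.32 and an adjusted p of 0.0246 in edgeR. SP1, SP3 and SP4 passed in no comparison with untreated cells, with adjusted p from 0.0178 to 0.98. For SP1 this depends on scaling: with DAC it gave -0.26 (0.0178) and fell by 0.47 with edgeR (4.22e-05). KLF7, KLF8, KLF12, KLF14, SP5, SP6, SP7 and SP8 were not tested. KLF8 had no read, and KLF14, SP5, SP6, SP7 and SP8 had 2 to 13 reads in all 12 libraries.

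Of 12 genes known as targets of KLF2 or KLF4, 8 were tested. All 8 rose with DAC (30.6% of all transcripts) and 7 with DAC+ATRA against untreated cells (32.6%), and over the settings 6 to 8 rose with DAC. NOS3 passed with DAC in 11 and IRF4 in 14 of 15 settings. S1PR1, NOS3 and IRF4 passed the filter through treated libraries, so they had to differ. In the list DAC+ATRA against DAC had 3 higher and 1 lower, with 6.08% of all transcripts higher and 5.26% lower. The list's median log2 fold change was 1.47 with DAC and 2.09 with DAC+ATRA, where that of all tested transcripts was 0.22 and 0.20. S1PR1, the sphingosine-1-phosphate receptor that KLF2 is known to induce for egress of lymphocytes from tissue, had no read in untreated libraries and 1.06, 0.91 and 0 normalized reads with ATRA. DAC libraries held 164, 260 and 193, and DAC+ATRA libraries 1012, 1204 and 1116. The order of the 4 groups was that of KLF2, with untreated and ATRA cells at or near 0. Against 3 reads over the untreated group S1PR1 was at least 226-fold higher with DAC and at least 1204-fold higher with both drugs. DAC+ATRA was above DAC by 2.45 ± 0.28 on the log2 scale (adjusted p = 1.45e-06).

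NOS3, the endothelial nitric oxide synthase, had means of 2.76, 9.10, 4.06 and 20.9 in untreated, DAC, ATRA and DAC+ATRA cells, a log2 fold change of 2.56 with both drugs, given without a test since the filter was passed there. THBD, the anticoagulant receptor thrombomodulin, had 191, 1166, 10519 and 23155 in that order, a rise of 5.80 ± 0.16 with ATRA alone (adjusted p = 1.44e-14) so that ATRA cells stood above DAC cells, unlike for KLF2. IL7R rose by 2.68 ± 0.14 with DAC (1.66e-12), to 1905 from 298, and stood at 1322 with both drugs. RASA3, a Ras GTPase-activating protein, rose by 0.52 ± 0.09 with DAC (6.25e-05) and was 0.59 ± 0.09 lower in DAC+ATRA than in DAC cells (5.86e-05). The list was put together with earlier results of these data known, so it is no independent support for a role of KLF2. CD14, CDKN1A, CDKN1C and ITGB7 were not tested.

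**Figure D4:**
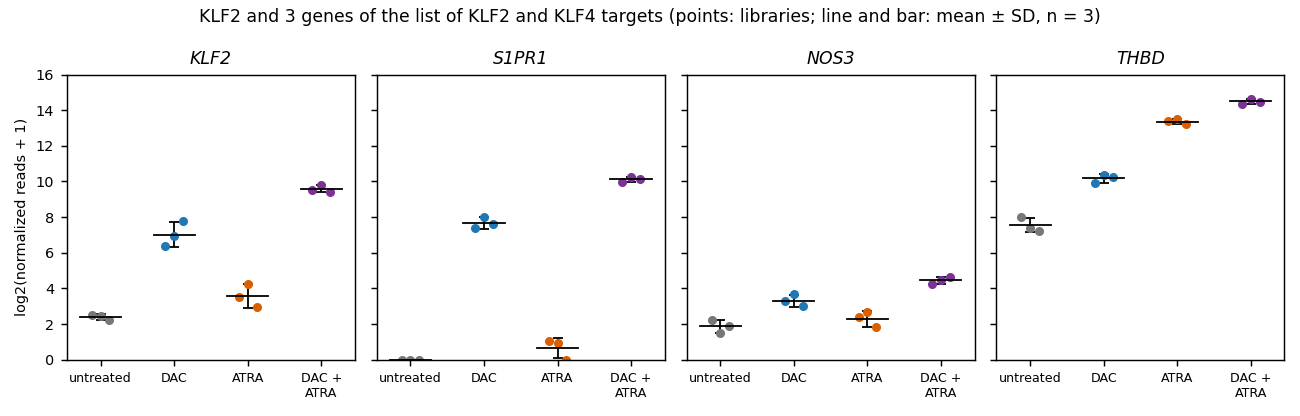
log2(normalized reads + 1) (y axis, from 0) of KLF2 and 3 list genes in the 4 groups, with 1 point per library and the mean ± SD of 3 libraries in black. All 4 are highest with DAC+ATRA, and THBD is the only 1 of the 4 with ATRA far above DAC (mean normalized reads 10519 against 1166).

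Cofactors of KLF proteins changed in both directions. Of 9 tested corepressors and coactivators, 4 rose and 2 fell with DAC+ATRA against untreated cells, where 46.8% of all transcripts changed and 32.6% rose. The acetyltransferase genes EP300 (1.09 ± 0.11, adjusted p = 4.23e-08) and KAT2B (0.83 ± 0.15, 8.42e-05) and the scaffold gene SIN3B (0.89 ± 0.15, 2.31e-05) had the largest rises on the log2 scale, and HDAC2 (-0.73 ± 0.18, 0.00215, passed in 11 of 15 settings) and SAP30 (-0.55 ± 0.11, 0.000215) fell. SIN3A, through which KLF9, KLF10, KLF11 and KLF13 repress, rose by 0.66 ± 0.12 with DAC (0.000115), while DAC+ATRA gave 0.27 (0.0677). CTBP1, the partner of KLF3, gave 0.10 with DAC (0.642). Of 6 tested genes that control or degrade KLF proteins, 2 rose and none fell with DAC+ATRA against untreated cells, where 32.6% of all transcripts rose. Their median log2 fold change was 0.045, beside 0.20 over all tested transcripts. FBXW7, a ubiquitin ligase subunit that targets KLF2 and KLF5, rose by 0.92 ± 0.21 with both drugs (0.000882), and FOXO1, which induces KLF2, by 0.87 ± 0.11 (5.14e-07). MEF2A and MEF2C, of the family that binds the element shown above, gave -0.46 (0.359) and 0.05 (0.894). They had means of 6.88 to 19.0 normalized reads, so small changes were not detectable at this depth.

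TGF-beta induces KLF10 and KLF11. Of 9 tested genes of this pathway, 4 rose with DAC and 4 with DAC+ATRA, where 30.6% and 32.6% of all transcripts rose. None fell, except SMAD2 with DAC in edgeR, DESeq2 and TMM scaling (edgeR -0.56, adjusted p = 0.00283). With both drugs SKIL (1.58 ± 0.26, adjusted p = 4.99e-05) and SKI (1.11 ± 0.13, 5.53e-07), inhibitors of SMAD signalling, and SMAD3 (1.54 ± 0.09, 8.4e-12), a transducer, rose on the log2 scale. TGFB1, the ligand, rose with DAC by 0.69 ± 0.18 (0.00375) and was 0.76 ± 0.18 lower in DAC+ATRA than in DAC cells (0.00576). Both calls passed in 8 of 15 settings, with edgeR at 0.0306 and 0.0128. KLF10 gave 0.16 between DAC+ATRA and DAC (interval -1.24 to 1.57, 0.909).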

How the data were processed

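Strand-specific libraries from rRNA-depleted total RNA were sequenced on an Illumina HiSeq instrument. The authors aligned reads to hg38 with STAR and counted them per UCSC transcript with htseq-count, and the deposited signal values are these counts divided by 1 size factor per library. Tool versions, annotation release, counting mode and strand setting are not given in the sources used here. Within each library 100% of values were whole multiples of 1 step (within 0.0001 of a read), from which reads were recovered. Transcripts were matched to GENCODE 44 by identifier (174768 of 197782), and only protein-coding transcripts were tested. Reads that fall on several transcripts may go uncounted, which lowers genes whose transcripts overlap.

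Coding transcripts with at least 10 normalized reads in 3 libraries (9016) were tested with limma 3.58.1 (trend, robust) in R 4.3.3 on log2(normalized reads + 1), with 12 libraries in 1 fit and Benjamini-Hochberg adjustment. The threshold was an adjusted p of 0.01, and every adjusted p is from this fit unless another tool is named. edgeR 4.0.16 and DESeq2 1.42.0 on recovered reads, other scalings, filters and pseudocounts, and leaving out libraries were alternatives. The scripts were tested on simulated data. File columns name a group but no replicate number. For each gene the coding transcript with the highest mean was used. All members and other tested family genes were named, and from each list up to 3 genes with the largest change each way past the threshold, with further list genes named for their roles after their values were seen. Some genes of the lists are counted but not reported here by name. The members and lists were chosen with earlier results of these data known. Sequences came from RefSeq and hg38.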

Additional observations from a re-analysis of the deposited data

Results flagged for a closer look

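The response to DAC and ATRA together departed from the sum of both single log2 changes (the interaction, limma, adjusted p under 0.01) in 6 of 41 tested genes of the KLF lists, beside 2.46% of all tested transcripts, and in none of the 6 KLF members counted for it. SMAD3 departed by 1.09 (1.59e-05) and THBD by -1.49 (0.000517), and both passed in all 15 alternative settings run for these genes. IL7R departed by -0.92 (0.0074), RASA3 by -0.59 (0.00788) and TXNIP by 0.66 (0.00792), and these passed in 7, 6 and 6 of the 15, with adjusted p up to 0.0321, 0.0332 and 0.0298. S1PR1 departed by 1.79 (0.00839) and passed in 5 of the 15. With no read in untreated cells its value depends on the pseudocount, and edgeR gave -0.17 (0.733).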

How the results depend on the processing

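No paired analysis was possible because the columns of the deposited table carry no replicate number. Over the alternatives set for the KLFs, 1102 values for single genes stayed on the same side of the threshold, 45 lost and 13 gained it, 8 untested values moved beyond the spread, and no value past the threshold changed sign, whereas some near 0 that were untested or missed the threshold did. With a filter of 10 reads in every library, which leaves 4 members, 3 were called with DAC, 2 with DAC+ATRA, 1 in DAC+ATRA against DAC and 2 in DAC+ATRA against ATRA. At an adjusted p of 0.05 all 7 members passed in DAC+ATRA against ATRA. Leaving out 1 library at a time gave, with KLF5 and KLF17 counted wherever fitted, 5 to 7 called members with DAC, 4 to 6 with DAC+ATRA, 3 to 4 in DAC+ATRA against DAC, 3 to 5 in DAC+ATRA against ATRA and none in the interaction, and medians of 0.02 to 0.36 with ATRA. The settings for the list genes were chosen after the data were seen: of the calls, 1316 values kept their side, 138 lost it, and S1PR1 turned in the interaction, at -0.17 with edgeR. The coding size factors, the library size and TMM moved the median of all transcripts with DAC to 0.07, 0.10 and 0.02. KLF4, KLF5, KLF10 and KLF11 have under 30 normalized reads in most libraries, which limits their precision.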
